A study of Homo sapiens with 15 samples.

Results

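Described here is the response of transplanted human lung cancer cells to restraint that followed transplantation. The cells are A549, an established human lung adenocarcinoma line, and they had grown as subcutaneous tumours in BALB/c nude mice, a strain without mature T cells. Tumours of mice restrained after transplantation (post-stress, n = 5, for which the labels give 12 days) were compared with tumours of unrestrained mice (no stress, n = 5). The labels do not say whether the number of days is a duration or a starting point. Every mouse had received the same number of cells of this 1 line, all tumours came from the same kind of host, and no gene was altered by design. The tumour cells were read through the human rows of the gene count table, which are 60649 of its 117590 rows, and 10 of the 15 libraries belong to the 2 groups. The other 5 libraries came from mice restrained before transplantation (stress, 7 days in the labels) and entered the model fit to steady the estimate of spread. Of the human genes, 15435 had enough counts to be tested. Nothing states how the animals were housed or when in the day tumours were taken, and each library is labelled as a replicate of its group without mention of separate experiments.

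Restraint is a psychological stressor that activates the adrenal axis, which releases glucocorticoids, and the sympathetic nerves, which release catecholamines. Glucocorticoids act through a nuclear receptor that switches on genes such as FKBP5 and PER1, and catecholamines act through beta-adrenergic receptors and cyclic AMP. Growing tumours also meet low oxygen, to which cells respond through the HIF transcription factors, which raise genes of sugar breakdown, blood vessel growth and mitochondrial turnover.

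Total counts per library ranged from 16729091 to 19680449 and human counts from 12877165 to 15892705. Mouse genes took 17.6% ± 4.93 of the counts after post-stress and 22.6% ± 6.65 without stress (SD, n = 5 each), a difference of −4.95 percentage points (exact 2-sided permutation p = 0.206, where 0.00794 is the smallest p possible). The highest mouse shares were those of no-stress replicates 1 and 5, with 30.2% in replicate 1. The human mitochondrial genome gave 4.02% ± 0.369 and 4.25% ± 0.170 of human counts (SD, n = 5 each, exact permutation p = 0.262). Keratins, aldo-keto reductases and NRF2-driven enzymes of A549 were abundant, 13 of the 15 marker genes of the line and of lung epithelium were tested and none was called, while NKX2-1 had no count and SFTPB 3 counts in the 10 libraries. CDKN2A, which A549 lacks, had no count in 9 of them and 5 counts in post-stress replicate 3, and of the stress tumours replicate 4 had 30 counts and the others none. Of 35 leukocyte, fibroblast and endothelial markers 13 were tested and none was called. Their summed level on human rows was 447 to 1595 CPM without stress and 377 to 750.2 CPM after post-stress, most of it from S100A8, S100A9, RGS5 and COL1A1, while PECAM1 had 2191, ADGRE1 1906, DCN 1644, LUM 712 and ITGAM 412 counts over the 10 libraries, MS4A1 had none and PTPRC, CD3E, CD163 and VWF had at most 11 each.

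Few human genes passed the test of post-stress against no stress, which is not a count of all genes that changed. Of 15435 tested genes, 130 (0.842%) passed an adjusted p of 0.05 against no stress, of which 92 (0.596%) rose and 38 (0.246%) fell (edgeR quasi-likelihood test, Benjamini-Hochberg adjusted over all tested genes). Genes past this threshold are called from here on. A further count, at an unadjusted p under 0.05, gave 1177 higher genes (7.63%) and 1164 lower ones (7.54%). These shares of all tested genes are the background for the counts of every list below. Changes of at least 2-fold were found for 29 higher and 4 lower genes. The median log2 fold change over all tested genes was −0.01. Levels are given as CPM, counts scaled to a common human library size, and in libraries of whole tumours fewer cells of a kind and less RNA per cell cannot be told apart. In 116 of the 130 genes the 2 groups did not overlap. Over all tested genes, all 5 post-stress tumours lay above all 5 no-stress tumours for 1.57% and below for 1.89%.

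**Figure D1:**
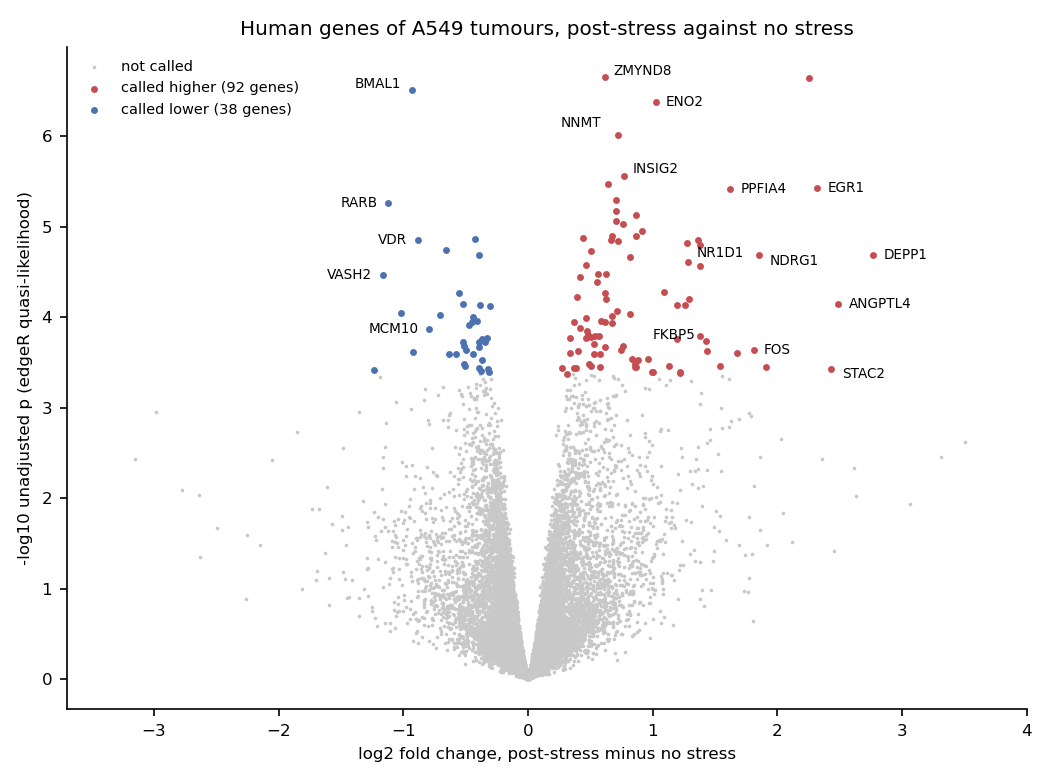
Each point is 1 of 15435 tested human genes, with the log2 fold change of post-stress against no stress on the x axis and the −log10 unadjusted p on the y axis. The 92 genes called higher are red and reach a log2 fold change of 2.77 (DEPP1), and the 38 genes called lower are blue and stay above −1.23 (LINC00488) or equal to it.

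The smallest p values were spread over genes of unlike roles. ZMYND8, a chromatin reader that binds acetylated histones, stood at 40.5, 39.8, 35.4, 39.8 and 44.1 CPM in no-stress replicates 1 to 5 and at 62.7, 63.6, 55.4, 57.1 and 66.9 CPM in post-stress replicates 1 to 5. All post-stress tumours were above all no-stress tumours, and the gene rose 1.53-fold (log2 fold change 0.62, SE 0.08, adjusted p = 0.00159). NNMT, which methylates nicotinamide, rose from 257 ± 20.7 to 423 ± 34.5 CPM (SD, n = 5, with log2 fold change 0.72, SE 0.10, adjusted p = 0.00299) without overlap. ERGIC1, a protein of the compartment between endoplasmic reticulum and Golgi, rose 1.56-fold (adjusted p = 0.00658), again without overlap. PPFIA4, a liprin scaffold protein, had 3.79, 4.19, 4.77, 8.95 and 6.62 CPM without stress and 15.5, 24.4, 13.4, 16.8 and 16.8 CPM after post-stress. Its lowest post-stress tumour was above its highest no-stress tumour, and it rose 3.07-fold (log2 fold change 1.62, SE 0.24, adjusted p = 0.00658). These 4 genes, together with BMAL1, ENO2, INSIG2, EGR1 and EGFR described later, were among the 10 with the smallest p values, and each of them kept its call in all 15 fits with a single library removed.

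Genes of the hypoxia response, targets of HIF, made up the list with the most calls among those that rose. Of its 25 members, all tested, 6 rose, none fell and 19 did not pass, a share called of 24.0% beside 0.842% over all genes. All 25 fold changes were positive, 22 had an unadjusted p under 0.05, and the median log2 fold change was 0.70, beside −0.01 over all genes. The list was chosen with results of these tumours known, so that its direction is not independent evidence. The 6 members that rose were NDRG1, INSIG2, BNIP3L, BNIP3, MXI1 and PFKFB4. The hypoxia response count was 3 without any of no-stress replicate 1, no-stress replicate 3 or post-stress replicate 2, 10 without post-stress replicate 5, 3 without no-stress replicates 1 and 5, and 2 with the mouse share as a covariate.

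The BNIP3 and ENO2 promoters are printed because both genes rose and both windows hold ACGTG, the core of the HIF binding site. The windows run from 250 bases before to 50 bases after the RefSeq start (GRCh38.p14), are written 5′ to 3′ along the gene, and have the match in capitals. BNIP3 lies on the minus strand at chr10:131981874-131982173 and ENO2 on the plus strand at chr12:6914330-6914629.
BNIP3: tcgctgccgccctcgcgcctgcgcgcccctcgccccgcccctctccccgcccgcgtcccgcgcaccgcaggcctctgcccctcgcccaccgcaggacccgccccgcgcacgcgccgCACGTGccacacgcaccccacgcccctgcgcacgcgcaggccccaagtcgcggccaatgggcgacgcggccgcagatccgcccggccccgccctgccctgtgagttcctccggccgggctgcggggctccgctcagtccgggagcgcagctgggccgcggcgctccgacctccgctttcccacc
ENO2: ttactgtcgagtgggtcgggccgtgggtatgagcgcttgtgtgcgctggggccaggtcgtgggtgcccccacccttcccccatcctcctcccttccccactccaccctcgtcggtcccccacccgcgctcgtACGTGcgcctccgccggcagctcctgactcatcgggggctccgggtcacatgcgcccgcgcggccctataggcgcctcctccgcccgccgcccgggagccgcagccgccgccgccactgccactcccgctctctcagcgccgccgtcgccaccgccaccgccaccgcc
In BNIP3 the capitals are the palindrome CACGTG, where ACGTG was matched on both strands from positions −134 and −133 before the start, and in ENO2 the match began at −118. On either strand, ACGTG stood in 18 of 32 windows (56.2%) of the tested hypoxia response genes, in 21.4% of all 35093 promoter windows and in 25.2% of the windows of tested genes. As the list holds targets of HIF, its share says nothing about these tumours. Among windows of all called genes, ACGTG stood in 32.5% of those called higher and 15.9% of those called lower. A match describes letters in the window and not a bound site.

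NDRG1, a growth regulator induced by low oxygen, stood at 132, 217, 165, 307 and 344 CPM in no-stress replicates 1 to 5 and at 1368, 947, 741, 663 and 485 CPM in post-stress replicates 1 to 5. Every post-stress tumour was above every no-stress tumour, and the rise was 3.61-fold (log2 fold change 1.85, SE 0.30, adjusted p = 0.0103). INSIG2, which holds the sterol sensor SCAP in the endoplasmic reticulum, stood at 27.7, 31.4, 33.2, 39.9 and 32.9 CPM and 74.6, 57.9, 52.7, 49.2 and 47.9 CPM in the same order. It rose 1.71-fold without overlap (log2 fold change 0.77, SE 0.12, adjusted p = 0.00658). BNIP3L, a mitophagy receptor, was at 108, 128, 131, 152 and 144 CPM without stress and 261, 223, 217, 183 and 194 CPM after post-stress. The groups did not overlap and the rise was 1.63-fold (log2 fold change 0.70, SE 0.11, adjusted p = 0.00854). Its paralogue BNIP3 rose 1.79-fold (log2 fold change 0.84, SE 0.18, adjusted p = 0.0436), with post-stress replicate 5 below the highest no-stress tumour, and its call ended in 11 of 15 fits with a single library removed. MXI1, an antagonist of MYC, rose from 40.7 ± 9.55 to 86.5 ± 27.1 CPM (SD, n = 5, with log2 fold change 1.09, SE 0.20, adjusted p = 0.0193). Without no-stress replicate 1, no-stress replicate 3 or post-stress replicate 2 the adjusted p of MXI1 was 0.0595, 0.0653 and 0.0512. PFKFB4, which makes the activator of phosphofructokinase, rose 2.60-fold (log2 fold change 1.38, SE 0.27, adjusted p = 0.0337), a call lost in 6 of those fits.

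Several textbook HIF targets did not pass. VEGFA, the main factor of blood vessel growth, stood at 175, 144, 158, 177 and 256 CPM without stress and 375, 379.7, 249.8, 303 and 229 CPM after post-stress, with an adjusted p of 0.0561. The groups overlapped through no-stress replicate 5 and post-stress replicates 3 and 5. ADM, a vasodilator peptide, had 45.5 ± 20.6 and 139 ± 71.9 CPM (SD, n = 5; adjusted p = 0.0520) and SLC2A1, the main glucose transporter of tumour cells, 365 ± 56 and 573 ± 207 CPM (SD, n = 5; adjusted p = 0.103). CA9, a membrane carbonic anhydrase, ranged from 38.8 to 92.4 CPM without stress and from 28.7 to 112 CPM after post-stress, with a log2 fold change of 0.31 and an SE of 0.40.

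Among 18 glycolysis genes, which break glucose down to pyruvate and lactate, 3 rose, none fell and 15 did not pass, with a median log2 fold change of 0.22. The share called was 16.7%, beside 0.842% over all tested genes. The hexokinase HK2, which traps glucose in the cell, stood at 8.50, 16.8, 15.4, 25.7 and 26.9 CPM without stress and at 101, 68, 40.1, 51.8 and 37.4 CPM after post-stress. Its groups did not overlap, post-stress replicate 1 was the highest, and the rise was 3.20-fold (log2 fold change 1.68, SE 0.34, adjusted p = 0.0394). ENO2, an enolase named for its abundance in neurons, had 50.4, 63.7, 61.3, 65.4 and 77.6 CPM without stress and 172, 109, 134, 122 and 111 CPM after post-stress. It rose 2.03-fold without overlap (log2 fold change 1.02, SE 0.13, adjusted p = 0.00159). The phosphofructokinase PFKP rose from 179 ± 18.8 to 265 ± 11.6 CPM (SD, n = 5, with log2 fold change 0.56, SE 0.10, adjusted p = 0.0137), and leaving out no-stress replicate 1 or 3 gave an adjusted p of 0.0521 and 0.0533. HK2 lost its call in 9 of the 15 fits, and the glycolysis count was 1 without either of no-stress replicates 1 and 3. None of 21 genes of the tricarboxylic acid cycle was called (edgeR quasi-likelihood test). None of these 21 had an unadjusted p under 0.05 either, DESeq2 and limma-voom also called 0, and their median log2 fold change was −0.03.

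Of 20 tested genes of lipid droplets and fatty acid oxidation 3 rose, and each serves the storage or release of fat. The share called was 15%, beside 0.842% over all tested genes. ANGPTL4, a secreted inhibitor of lipoprotein lipase, stood at 22.8, 41, 28.2, 45.6 and 44.5 CPM without stress and 400.3, 306, 147, 88.6 and 79.8 CPM after post-stress. Post-stress replicates 1 and 2 were the highest, the groups did not overlap, and the rise was 5.61-fold (log2 fold change 2.49, SE 0.44, adjusted p = 0.0223). With no-stress replicate 1, no-stress replicate 3 or post-stress replicate 2 left out, its adjusted p was 0.0845, 0.0732 and 0.0545. The droplet coat protein PLIN2 rose 2.33-fold (adjusted p = 0.0493) and HILPDA, an inhibitor of fat breakdown, 2.33-fold (adjusted p = 0.0491). Both had overlapping groups and lost the call in 11 of 15 such fits. The lipid droplet count was 0 without no-stress replicate 1 or 3 or post-stress replicate 2, 1 without no-stress replicate 2 or 5, post-stress replicate 1 or 3 or stress replicate 1, 3, 4 or 5, and 0 with the mouse share as a covariate.

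**Figure D2:**
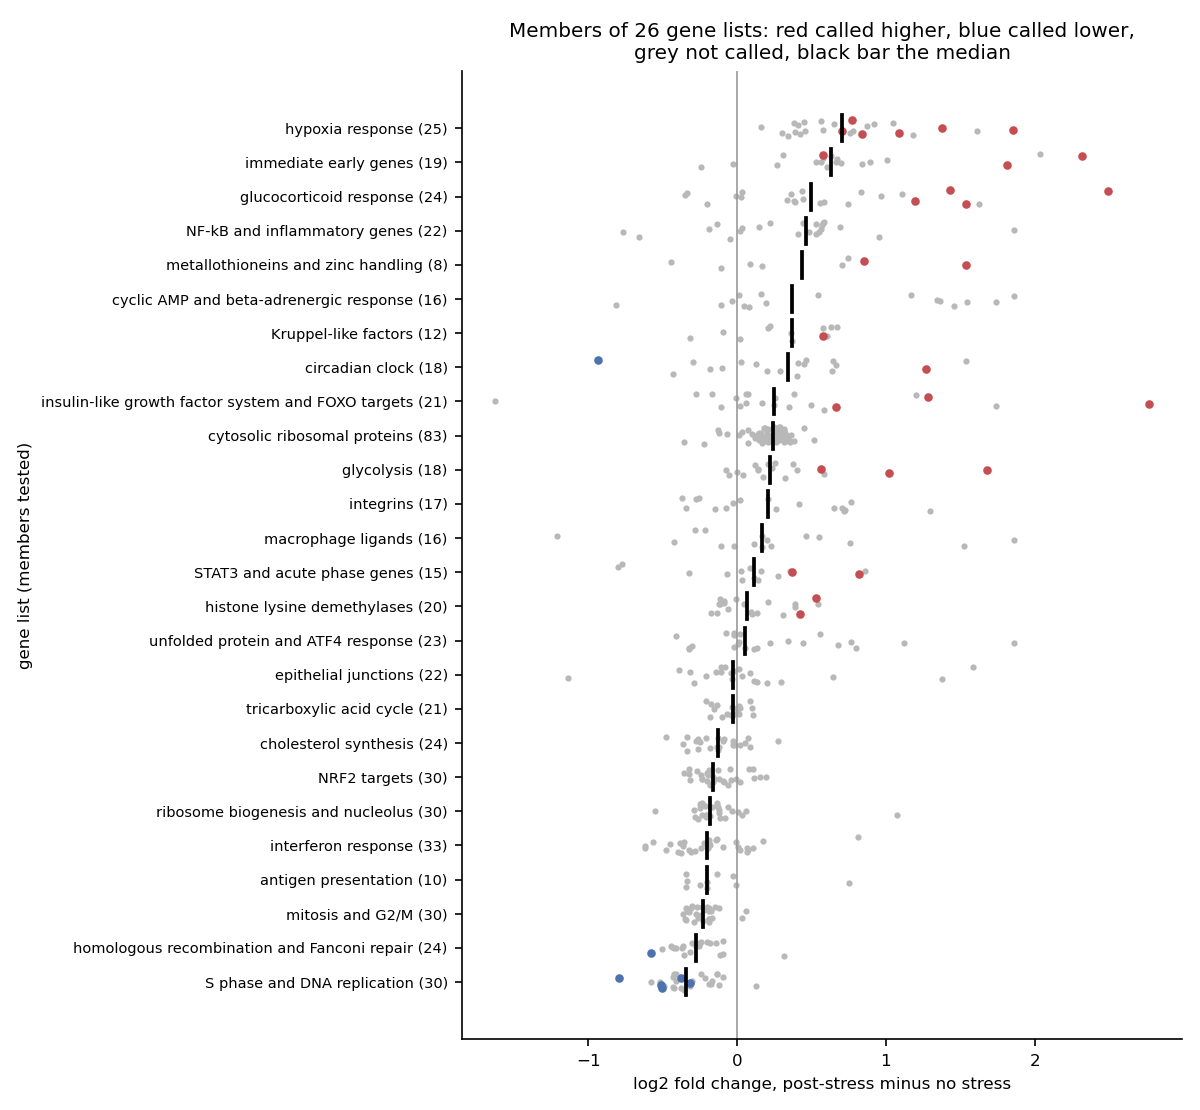
Each row is a gene list with its number of tested members, each point a member at its log2 fold change of post-stress against no stress, and the black bar the median of the list. The hypoxia response has the highest median of the 26 lists drawn (0.70) and S phase and DNA replication the lowest (−0.34), and 0 is close to the median of all tested genes (−0.01).

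Immediate early genes, which cells switch on within minutes of a growth factor or stress signal, gave 3 higher members of 19 tested, EGR1, FOS and KLF10. None fell and 16 did not pass, a share called of 15.8% beside 0.842% over all tested genes. At an unadjusted p under 0.05, 15 were higher and 0 lower, beside 7.63% and 7.54% of all tested genes. The median log2 fold change was 0.63. EGR1, a zinc finger transcription factor, stood at 10.7, 6.98, 7.12, 6.52 and 8.40 CPM without stress and at 55.3, 61, 29, 34.9 and 18.1 CPM after post-stress. The lowest post-stress tumour, replicate 5, was above all no-stress tumours, and the rise was 4.99-fold (log2 fold change 2.32, SE 0.31, adjusted p = 0.00658). FOS, a subunit of the AP-1 transcription factor, was at 22.1, 21.9, 24.2, 20.6 and 42.3 CPM without stress and 127, 116, 112, 66.3 and 37.1 CPM after post-stress. It rose 3.51-fold (log2 fold change 1.81, SE 0.36, adjusted p = 0.0389), but post-stress replicate 5 lay below no-stress replicate 5. KLF10, a zinc finger factor first known from TGF-beta signalling, rose 1.49-fold (log2 fold change 0.57, SE 0.13, adjusted p = 0.0468). On leaving out single libraries, 15 fits in all, FOS lost the call in 9 of them, KLF10 in 10 and EGR1 in none. Without no-stress replicate 1, 3 or 4, post-stress replicate 1, 2 or 3, or stress replicate 3, 1 of the immediate early genes was called, as it was with the mouse share as a covariate. FOSB, another AP-1 subunit, had 4.21, 3.19, 2.04, 2.65 and 4.69 CPM and 22.8, 17.3, 7.86, 16.9 and 3.64 CPM in the same order, with an adjusted p of 0.101.

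The promoter of EGR1 is shown because it holds 2 CArG boxes, the element bound by serum response factor, within 50 bases of each other. It lies on the plus strand at chr5:138465229-138465528 (RefSeq, GRCh38.p14), and the boxes, in capitals, begin at positions −105 and −83.
EGR1: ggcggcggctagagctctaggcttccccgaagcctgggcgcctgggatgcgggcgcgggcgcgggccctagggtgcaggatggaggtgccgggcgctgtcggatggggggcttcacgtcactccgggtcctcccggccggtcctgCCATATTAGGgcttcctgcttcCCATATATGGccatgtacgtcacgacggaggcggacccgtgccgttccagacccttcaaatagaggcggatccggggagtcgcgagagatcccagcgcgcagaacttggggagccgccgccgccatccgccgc
A CArG box on either strand stood in 1.29% of all promoter windows and in 1.08% of the windows of tested genes. Among the tested immediate early genes it stood in 1 of 13 windows, the one of EGR1.

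Genes that respond to glucocorticoids included 4 that rose among 24 tested, none that fell and 20 that did not pass. The share called was 16.7%, beside 0.842% over all tested genes. At an unadjusted p under 0.05, 12 were higher and 1 lower, beside 7.63% and 7.54% of all tested genes. The median log2 fold change was 0.50. FKBP5, a co-chaperone that tunes the glucocorticoid receptor and a common readout of its activity, stood at 103, 123, 88.5, 91 and 100.2 CPM in no-stress replicates 1 to 5 and at 226, 416, 183, 204 and 335 CPM in post-stress replicates 1 to 5. Post-stress replicates 2 and 5 were the highest, the groups did not overlap, and the rise was 2.70-fold (log2 fold change 1.43, SE 0.28, adjusted p = 0.0353). SCNN1A, the alpha subunit of the epithelial sodium channel, had 8.50, 15, 13.9, 10.5 and 11.5 CPM without stress and 18, 32.9, 26.4, 25.5 and 32.9 CPM after post-stress. It rose 2.29-fold without overlap (log2 fold change 1.19, SE 0.24, adjusted p = 0.0337). FKBP5 and SCNN1A lost their calls in 8 and 7 of 15 fits with a single library removed. The other members called were ANGPTL4 and the metallothionein MT1X. Leaving out no-stress replicate 1, no-stress replicate 3 or post-stress replicate 2 brought the glucocorticoid response count to 0, no-stress replicate 4 to 1, and no-stress replicate 2 or post-stress replicate 1 to 2. It was 0 without no-stress replicates 1 and 5 together and 0 with the mouse share as a covariate.

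Other readouts of this receptor did not pass. TSC22D3, a leucine zipper protein that glucocorticoids induce, stood at 72.6, 101, 83.3, 59.9 and 83.4 CPM without stress and 209.8, 215, 114, 123 and 122 CPM after post-stress. All post-stress tumours were above all no-stress tumours, and the adjusted p was 0.103. The phosphatase DUSP1 had 78.8 ± 39.9 and 243 ± 119 CPM (SD, n = 5; adjusted p = 0.0807), and PER1 13.6 ± 10.6 and 39.7 ± 22.9 CPM (SD, n = 5; adjusted p = 0.213). The receptor itself, NR3C1, stood at 208 ± 8.29 and 225 ± 22.9 CPM (SD, n = 5; log2 fold change 0.11, SE 0.08). Cyclic AMP and beta-adrenergic target genes numbered 16 tested and none called (edgeR quasi-likelihood test). At an unadjusted p under 0.05, 6 were higher and 1 lower, beside 7.63% and 7.54% of all tested genes. DESeq2 called 5 higher and limma-voom 1. NR4A1, an orphan nuclear receptor of this list, had 8.85, 8.78, 7.37, 6.59 and 9.59 CPM and 31.4, 22.9, 23.1, 21.1 and 7.13 CPM (adjusted p = 0.133), with post-stress replicate 5 within the no-stress range. Of 8 tested genes of zinc handling, 5 were metallothioneins, small proteins that bind zinc and copper, and 2 of these rose, MT1X (2.91-fold, adjusted p = 0.0468) and MT1E (1.81-fold, adjusted p = 0.0468). The calls were lost in 9 and 11 of 15 fits with a single library removed, and both without no-stress replicates 1 and 5 together or with the mouse share as a covariate. No metallothionein was called without no-stress replicate 1, 3 or 4, post-stress replicate 1 or 2, or stress replicate 1 or 3. As these genes are nearly alike in sequence, how reads were split between them is uncertain.

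**Figure D3:**
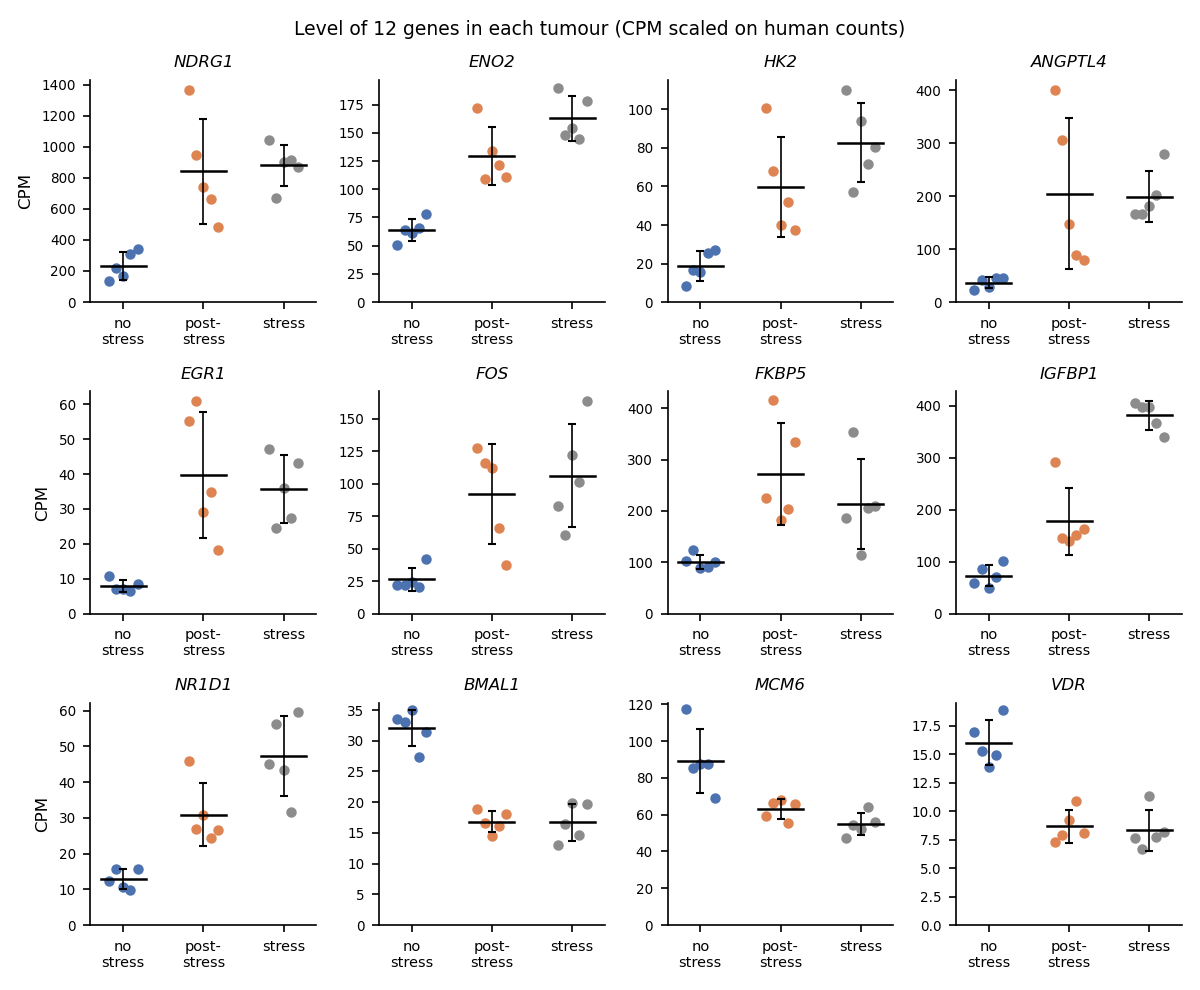
CPM of 12 genes (y axis, from 0) in the 5 tumours of each group (x axis); each point is a tumour, the line the group mean and the bar ± 1 SD. Of the 12, FOS is the gene whose post-stress points reach into the no-stress range, and BMAL1, MCM6 and VDR lie lower after post-stress.

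Clock genes included 1 called in each direction among 18 tested. BMAL1, whose protein pairs with CLOCK to drive the daily cycle, stood at 33.6, 33.1, 35, 27.3 and 31.5 CPM without stress and at 18.9, 16.6, 14.4, 16.2 and 18 CPM after post-stress. All post-stress tumours were below all no-stress tumours, with a narrow spread in both groups, and the level was 0.525 times that without stress (log2 fold change −0.93, SE 0.12, adjusted p = 0.00159). NR1D1, the nuclear receptor REV-ERB alpha that represses BMAL1 in the clock's second loop, stood at 12.2, 15.7, 10.6, 9.88 and 15.6 CPM without stress and 45.9, 26.8, 30.8, 24.3 and 26.6 CPM after post-stress. It rose 2.42-fold without overlap (log2 fold change 1.27, SE 0.21, adjusted p = 0.00924). Both calls held in each fit that left out 1 library, with adjusted p values up to 0.00923 and 0.0368, and with the mouse share as a covariate they were 0.00891 and 0.0584. Without no-stress replicates 1 and 5 together NR1D1 was not called. CRY2, a repressor of BMAL1 and CLOCK, had 13.6 ± 1.61 and 18.8 ± 2.44 CPM (SD, n = 5; adjusted p = 0.0523), without overlap. NR1D2, the paralogue of NR1D1, had 39.1 ± 9.29 and 62.2 ± 10.9 CPM (SD, n = 5; adjusted p = 0.0795), PER2 56.5 ± 7.14 and 57.7 ± 9.46 CPM (adjusted p = 0.935) and CLOCK 33.4 ± 3.58 and 27.2 ± 1.69 CPM (adjusted p = 0.143). The time of day at which tumours were collected is not in the labels, so that it cannot be told apart from the groups.

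A promoter window of BMAL1 is shown for AGGTCA, the element that REV-ERB and ROR receptors read. It lies on the plus strand at chr11:13277540-13277839 (RefSeq, GRCh38.p14), the match in capitals begins 32 bases into the transcript, and a second BMAL1 window in the table had no match.
BMAL1: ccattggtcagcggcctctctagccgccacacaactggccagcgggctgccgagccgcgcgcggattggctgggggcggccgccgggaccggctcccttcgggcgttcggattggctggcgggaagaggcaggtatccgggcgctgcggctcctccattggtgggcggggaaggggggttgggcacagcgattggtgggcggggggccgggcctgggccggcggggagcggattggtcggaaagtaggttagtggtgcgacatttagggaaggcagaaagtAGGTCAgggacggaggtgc
AGGTCA on either strand stood in 13.8% of all windows, in 10.4% of the windows of tested genes and in 5 of 25 windows of the tested clock genes.

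Of 21 tested genes of the insulin-like growth factor system and of FOXO targets 3 rose, none fell and 18 did not pass. The share called was 14.3%, beside 0.842% over all tested genes. DEPP1, a FOXO target that lowers the cell's defence against peroxide, had the largest increase of all called genes. It stood at 0.913, 3.39, 1.67, 2.87 and 4.54 CPM without stress and 34.9, 14.4, 18.2, 16.5 and 6.84 CPM after post-stress. The groups did not overlap and the rise was 6.82-fold (log2 fold change 2.77, SE 0.44, adjusted p = 0.0103). IGFBP1, a secreted binding protein of these growth factors, had 59.4, 85.1, 50.03, 70.5 and 100.2 CPM and 292, 145, 139, 151 and 163 CPM. It rose 2.44-fold without overlap (log2 fold change 1.29, SE 0.21, adjusted p = 0.0115). KLHL24, a ubiquitin ligase adaptor, rose 1.58-fold (adjusted p = 0.00921). All 3 kept their calls in each fit that left out 1 library. With the mouse share as a covariate 1 of this list was called.

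Receptors and signalling genes gave single calls. EGFR, the epidermal growth factor receptor, stood at 63.7, 75.9, 59.5, 53 and 71.5 CPM without stress and 105, 102, 80.6, 127 and 114 CPM after post-stress. It rose 1.63-fold without overlap (log2 fold change 0.71, SE 0.11, adjusted p = 0.00765), the 1 call among 13 tested EGFR ligands and receptors. SMAD3, which carries TGF-beta signals to the nucleus, rose 1.38-fold (adjusted p = 0.0337), the 1 call among 25 tested TGF-beta and BMP genes, and it was lost in 7 of 15 fits with a single library removed and without no-stress replicates 1 and 5. Of 15 STAT3 and acute phase genes, SOCS3, a feedback inhibitor of cytokine receptors, rose from 66.8 ± 11.5 to 118 ± 17.9 CPM (SD, n = 5, with log2 fold change 0.82, SE 0.14, adjusted p = 0.0104). OSMR, the receptor of oncostatin M, rose 1.29-fold (adjusted p = 0.0468), a call lost in 11 of 15 such fits. BBC3, the pro-apoptotic protein PUMA, rose 1.49-fold (adjusted p = 0.0394), the 1 call among 24 p53 targets and 28 apoptosis regulators, and it was lost in 8 of those fits, without no-stress replicates 1 and 5, and with the mouse share as a covariate. MAOA, the mitochondrial oxidase that breaks down noradrenaline and serotonin, rose from 41.7 ± 6.93 to 76.8 ± 20.3 CPM (SD, n = 5, with log2 fold change 0.88, SE 0.19, adjusted p = 0.0436), with 44.1 ± 11.9 CPM in the stress tumours, and its call was lost in 10 of those fits.

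Of 20 histone lysine demethylases 2 rose, none fell and 18 did not pass, a share called of 10% beside 0.842% over all tested genes. KDM4B, which removes methyl groups from lysine 9 of histone H3, stood at 52.4, 49.5, 58.8, 51.7 and 53.8 CPM without stress and 94.6, 79.4, 60.9, 75.5 and 74.8 CPM after post-stress. The groups did not overlap, post-stress replicate 3 was the lowest of its group, and the rise was 1.45-fold (log2 fold change 0.53, SE 0.11, adjusted p = 0.0359). KDM4C, of the same family, rose 1.34-fold (log2 fold change 0.42, SE 0.08, adjusted p = 0.0141), and its adjusted p was 0.0519 without no-stress replicate 1. KDM4B lost its call in 7 of 15 fits with a single library removed. Leaving out no-stress replicate 1 brought the demethylase count to 0, and leaving out no-stress replicate 2, 3 or 5 or post-stress replicate 1 or 2 brought it to 1. It was also 0 with no-stress replicates 1 and 5 both left out and with the mouse share as a covariate. KDM3A, which belongs to the hypoxia response list as well, had 108 ± 19 and 141 ± 30.1 CPM (SD, n = 5; adjusted p = 0.197). Among 203 tested solute carriers, 5 rose (SLC45A1, SLC25A36, SLC25A37, SLC39A14 and SLC45A4) and 2 fell (SLC25A44 and SLC23A2). The share called was 3.45%, beside 0.842% over all tested genes. At an unadjusted p under 0.05, 20 of the 203 were higher and 18 lower, beside 7.63% and 7.54% of all tested genes. The family's median log2 fold change was −0.02, so that it did not move in 1 direction. SLC25A37 imports iron into mitochondria, SLC39A14 zinc and iron into the cell, and SLC23A2 vitamin C. SLC45A1, a sugar transporter, had the largest change of the family, 2.57-fold (log2 fold change 1.36, SE 0.23, adjusted p = 0.00921). Without no-stress replicate 1 or 3 or post-stress replicate 1 or 2, the solute carrier calls were 2 higher and 0 lower, as they were without no-stress replicates 1 and 5 together and with the mouse share as a covariate. The lower calls were also 0 without post-stress replicate 3 or 4, and 1 without no-stress replicate 2 or 5, post-stress replicate 5 or stress replicate 4. STAC2, an adaptor of calcium channels, had 2.81, 5.72, 5.51, 16.1 and 7.36 CPM without stress and 31.8, 100.1, 24.8, 15.9 and 29.3 CPM after post-stress. Its groups overlapped, and the 5.40-fold rise (adjusted p = 0.0478) was lost in 13 of 15 fits with a single library removed.

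Of the 38 genes that fell, 4 changed at least 2-fold. The largest decrease was that of LINC00488, a long non-coding RNA, which stood at 4.24 ± 0.941 CPM without stress and 1.798 ± 0.784 CPM after post-stress (SD, n = 5, with log2 fold change −1.23, SE 0.28, adjusted p = 0.0478), and this call was lost in 13 of the 15 fits. VASH2, which promotes vessel growth and removes tyrosine from tubulin, stood at 10.3, 8.18, 8.61, 9.24 and 7.21 CPM without stress and 4.90, 4.38, 3.58, 4.43 and 2.14 CPM after post-stress. The groups did not overlap, and the log2 fold change was −1.16 (SE 0.21, adjusted p = 0.0137, or 0.0521 without no-stress replicate 1). NAV3, a protein of microtubule ends, fell to 0.529 times its no-stress level (adjusted p = 0.0394, a call lost in 8 of the 15 fits) and the kinase LYN to 0.699 times (adjusted p = 0.0223). Without no-stress replicate 1, post-stress replicate 1 or post-stress replicate 2 the adjusted p of LYN was 0.0853, 0.0688 and 0.0664. The mitochondrial transfer RNA gene MT-TH fell from 5.29 ± 1.06 to 2.60 ± 0.345 CPM (SD, n = 5; adjusted p = 0.0254), a call lost in 4 of the 15 fits. None of the 13 mitochondrial protein-coding genes was called (edgeR quasi-likelihood test), with 2 lower and 0 higher at an unadjusted p under 0.05 and 0 calls from DESeq2 and limma-voom.

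Both nuclear receptors that fell bind derivatives of fat-soluble vitamins. RARB, a retinoic acid receptor, stood at 16.2, 17.4, 19.6, 13.8 and 14.7 CPM without stress and at 7.11, 8.90, 8.56, 8.70 and 4.28 CPM after post-stress. Every post-stress tumour was below every no-stress tumour, and the log2 fold change was −1.12 (SE 0.18, adjusted p = 0.00765). VDR, the vitamin D receptor, had 17, 15.3, 13.9, 15 and 18.9 CPM without stress and 7.25, 7.87, 9.19, 10.9 and 8.13 CPM after post-stress. It fell without overlap (log2 fold change −0.88, SE 0.15, adjusted p = 0.00921). They were the 2 calls among 19 tested genes of vitamin D and retinoic acid, and both held in each fit that left out 1 library, with adjusted p values up to 0.0244 and 0.0347. VDR was not called without no-stress replicates 1 and 5 together. Among 32 tested nuclear receptors these 2 fell and NR1D1 rose.

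Genes of S phase and DNA replication gave 5 of the 38 calls downward. Of 30 tested members these 5 fell, none rose and 25 did not pass, a share called of 16.7% beside 0.842% over all tested genes. At an unadjusted p under 0.05, 19 were lower, beside 7.54% of all tested genes. In 29 of the 30 the log2 fold change was negative, with a median of −0.34. MCM6, a subunit of the replicative helicase, stood at 117, 85.3, 87.7, 87.7 and 68.9 CPM without stress and 59.1, 66.5, 67.9, 55.7 and 65.9 CPM after post-stress. No-stress replicate 1, 1 of the 2 with the highest mouse share, was the highest, and no-stress replicate 5, the other, the lowest of its group. The groups did not overlap and the log2 fold change was −0.50 (SE 0.11, adjusted p = 0.0468). MCM10, needed to start replication at origins, had 25.2, 16.2, 16.9, 20.5 and 11.4 CPM and 9.46, 10.7, 11.1, 9.62 and 11.3 CPM. It fell to 0.578 times its no-stress level (log2 fold change −0.79, SE 0.16, adjusted p = 0.0308), with no-stress replicate 5 close above the highest post-stress tumour. The flap endonuclease FEN1, the helicase subunit MCM3 and the sliding clamp PCNA fell to 0.702, 0.803 and 0.772 times their no-stress levels (adjusted p = 0.0373, 0.0473 and 0.0491). With single libraries removed, the S phase and DNA replication count stood below 5 in 14 of 15 fits. It was 0 without no-stress replicate 1 or 3 or post-stress replicate 1, 2 or 4, 1 to 3 without any other tumour but no-stress replicate 5, and 7 without that one. It was 1 without both no-stress replicates 1 and 5, and 0 with the mouse share as a covariate. It was 0 with only the 2 groups in the fit, 11 with DESeq2 and 1 with limma-voom.

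The windows of MCM6 and MCM3 are shown for the E2F element, searched as TTTGGCGC or TTTCCCGC, through which the E2F factors time replication genes. Both genes lie on the minus strand, at chr2:135876394-135876693 and chr6:52284693-52284992 (RefSeq, GRCh38.p14), with the element in capitals.
MCM6: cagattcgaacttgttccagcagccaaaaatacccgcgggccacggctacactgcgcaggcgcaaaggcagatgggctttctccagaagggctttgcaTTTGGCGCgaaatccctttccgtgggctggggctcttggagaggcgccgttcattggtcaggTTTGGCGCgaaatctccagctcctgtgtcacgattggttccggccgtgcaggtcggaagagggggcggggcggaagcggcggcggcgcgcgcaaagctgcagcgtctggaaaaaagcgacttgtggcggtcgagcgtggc
MCM3: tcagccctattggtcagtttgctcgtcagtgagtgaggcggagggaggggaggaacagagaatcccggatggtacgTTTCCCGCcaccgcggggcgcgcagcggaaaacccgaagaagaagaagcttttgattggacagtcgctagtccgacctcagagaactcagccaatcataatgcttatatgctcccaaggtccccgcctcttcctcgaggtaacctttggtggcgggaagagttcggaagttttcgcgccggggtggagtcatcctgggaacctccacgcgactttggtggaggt
In MCM6 the matches began at −152 and −90 and in MCM3 at −174. On either strand the element stood in 14 of 33 windows (42.4%) of the tested S phase genes, in 2.27% of all windows and in 3.19% of the windows of tested genes. As the list holds replication genes timed by E2F, its share says nothing about these tumours. Among windows of all called genes, the element stood in 9.09% of those called lower and 3.17% of those called higher.

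Other growth genes did not pass, or passed singly. Over all tested genes 0.842% were called, and at an unadjusted p under 0.05, 7.63% were higher and 7.54% lower. BRIP1, a helicase of the Fanconi pathway, fell from 28.2 ± 4.97 to 19 ± 2.80 CPM (SD, n = 5, with log2 fold change −0.57, SE 0.13, adjusted p = 0.0394), the 1 call among 24 genes of homologous recombination and Fanconi repair, whose median log2 fold change was −0.27. The call of BRIP1 was lost in 8 of 15 fits with a single library removed, without no-stress replicates 1 and 5, and with the mouse share as a covariate. None of 30 genes of mitosis was called (edgeR quasi-likelihood test), 8 were lower and 0 higher at an unadjusted p under 0.05, DESeq2 and limma-voom called 0, and the median was −0.23. MKI67, the proliferation marker Ki-67, stood at 241, 165, 187, 167 and 138 CPM without stress and 104, 151, 126, 161 and 165 CPM after post-stress, with an adjusted p of 0.300. The groups overlapped. Ribosome biogenesis had 0 of 30 genes called, with 14 lower and 0 higher at an unadjusted p under 0.05, 1 lower with DESeq2, 0 with limma-voom and a median of −0.18. The 83 tested cytosolic ribosomal protein genes had a median of 0.24 on the other side of 0, with 78 positive, 0 called by edgeR, DESeq2 and limma-voom, and 12 higher and 1 lower at an unadjusted p under 0.05.

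The NF-kB, macrophage ligand and NRF2 lists gave no calls, beside 0.842% called over all tested genes. At an unadjusted p under 0.05, 7.63% of all tested genes were higher and 7.54% lower (edgeR quasi-likelihood test). Of 22 tested NF-kB and inflammatory genes 0 were called (edgeR quasi-likelihood test), 10 were higher and 0 lower at an unadjusted p under 0.05, DESeq2 called 3 higher and limma-voom 0, and the median log2 fold change was 0.46. IL6, a cytokine of this list, had 12.5, 10.6, 6.81, 14.2 and 19 CPM without stress and 34.8, 32.3, 21.8, 17.6 and 15.3 CPM after post-stress (adjusted p = 0.136). Among 16 tested genes of macrophage ligands, 0 were called, with 4 higher and 1 lower unadjusted, 2 higher with DESeq2 and 1 with limma-voom. CSF1, the macrophage growth factor, stood at 95.1 ± 28.3 and 131 ± 38.1 CPM (SD, n = 5; adjusted p = 0.297), CCL2, a chemokine for monocytes, at 7.24 ± 1.70 and 7.14 ± 1.97 CPM (adjusted p = 0.983) and CXCL8, a chemokine for neutrophils, at 188 ± 60.1 and 276 ± 104 CPM (adjusted p = 0.435). None of 30 NRF2 targets was called, 5 were lower and 0 higher unadjusted, and DESeq2 called 1 lower and limma-voom 0. NQO1, a quinone reductase of this list, stood at 2098 ± 467 and 1967 ± 234 CPM (SD, n = 5; adjusted p = 0.806).

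Interferon-stimulated genes, which cells switch on against viruses, gave no calls after post-stress. Of 33 tested members 0 were called against no stress, 0 had an unadjusted p under 0.05 in either direction, DESeq2 and limma-voom called 0, and the median log2 fold change was −0.20. Against stress 0 were called as well, while 31 of the 33 were lower at an unadjusted p under 0.05, beside 5.75% of all tested genes, with a median of −1.43. In stress against no stress 19 of the 33 were called higher and 0 lower, with a median of 1.28, beside 10.5% of all tested genes called in either direction. ISG15, a ubiquitin-like modifier, stood at 127, 308, 78.4, 214 and 198 CPM without stress and 223, 128, 198, 244 and 180.2 CPM after post-stress, and at 804, 521, 704, 183 and 736 CPM in stress replicates 1 to 5. The post-stress tumours lay within the no-stress range and below all but the lowest of the stress tumours. Its log2 fold change of post-stress against stress was −1.60 (SE 0.40, adjusted p = 0.145).

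The comparison of the 2 restrained groups asks whether tumour cells differed between them. Timing of restraint and its days in the labels (12 for post-stress, 7 for stress) differ together and cannot be told apart. It called 6 of 15435 genes (0.0389%), 2 higher (0.013%) and 4 lower (0.0259%) after post-stress than after stress. The growth factor MDK (midkine) stood at 7.25, 7.80, 5.89, 10.2 and 4.78 CPM in post-stress and 21.6, 20.4, 24.4, 14.3 and 21.7 CPM in stress replicates 1 to 5. The groups did not overlap, the log2 fold change was −1.51 (SE 0.23, adjusted p = 0.0242), and the no-stress level was 8.32 ± 3.06 CPM (SD, n = 5). PPM1K, a mitochondrial phosphatase that activates the breakdown of branched-chain amino acids, was lower by a log2 fold change of −1.68 (SE 0.27, adjusted p = 0.0290). The histone H2B genes H2BC4 and H2BC12 were lower by −1.40 and −0.67 (adjusted p = 0.0242 and 0.0290), and as near-identical copies of other H2B genes their counts are uncertain. The ceramide kinase CERK stood at 56.4, 64.5, 56.5, 55.3 and 50.1 CPM in post-stress and 42.1, 32.6, 38, 42.4 and 30.9 CPM in stress tumours, without overlap. It was higher after post-stress, with a log2 fold change of 0.60 (SE 0.09, adjusted p = 0.0242), as was RAB26, a GTPase of secretory granules (0.79, adjusted p = 0.0290). None of the 6 was called in post-stress against no stress. The count ranged from 0 to 189 over the fits that left out 1 library, with 189 without stress replicate 4, the library with 30 counts of CDKN2A, 13 without no-stress replicate 2, 1 without post-stress replicate 5 and 0 without post-stress replicate 2 or 3 or stress replicate 2, 3 or 5. Stress replicate 4 also had the lowest ISG15 level of the stress tumours. The part of its CDKN2A counts or of its ISG15 level in this result was not tested.

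**Figure D4:**
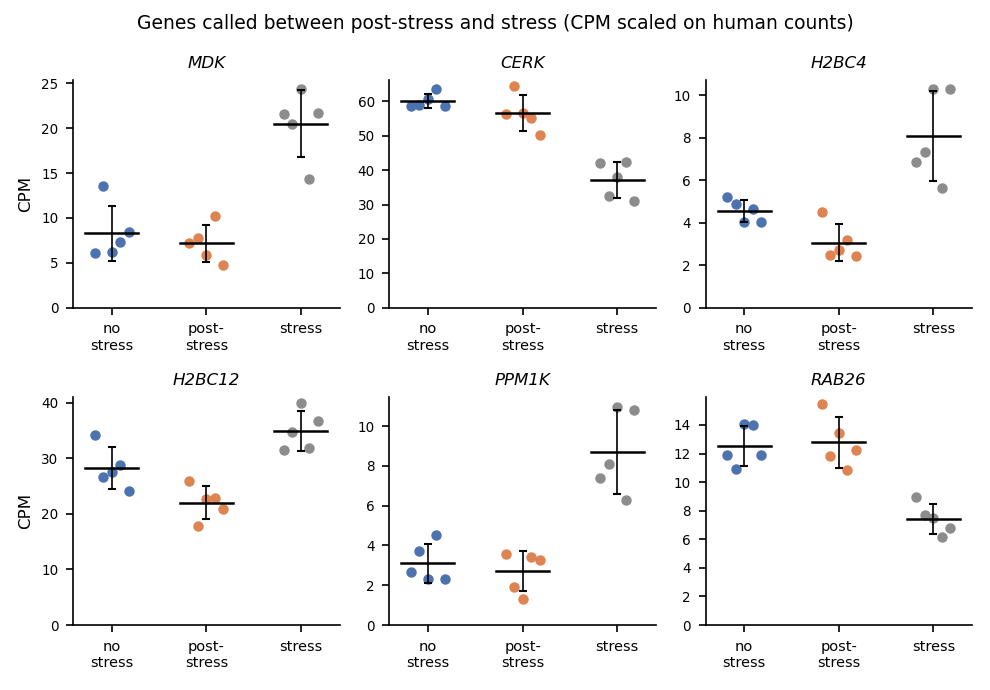
CPM (y axis, from 0) of the 6 genes called between post-stress and stress in the 5 tumours of each group (x axis); points are tumours, lines group means and bars ± 1 SD. In MDK, PPM1K and H2BC4 every stress tumour is above every other tumour, and in CERK and RAB26 every stress tumour is below every other tumour.

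Against the same no-stress tumours, the stress tumours had 1613 genes called (10.5%). The 2 comparisons share their no-stress tumours, so that their values are given side by side without a test of likeness. In order, the log2 fold changes of post-stress and of stress against no stress were 1.85 and 1.92 for NDRG1, 2.32 and 2.16 for EGR1, 1.43 and 1.08 for FKBP5 and −0.93 and −0.94 for BMAL1. The direct differences of post-stress against stress for these 4 genes were −0.07 (SE 0.29), 0.16 (SE 0.29), 0.35 (SE 0.28) and 0.01 (SE 0.12), with adjusted p values of 0.958, 0.882, 0.681 and 0.991. IGFBP1 had 1.29 and 2.39, and its direct difference of −1.10 (SE 0.21) had an adjusted p of 0.0791. MAOA had 0.88 and 0.08, with a direct difference of 0.80 (SE 0.19, adjusted p = 0.125).

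The number of calls against no stress depended on single tumours. Leaving out no-stress replicate 1 gave 37, no-stress replicate 3 gave 45, no-stress replicate 2 gave 83, post-stress replicate 1 gave 54 and post-stress replicate 2 gave 51. Of the 130 genes 36 were called in all 10 fits that left out a tumour of the 2 groups. With the mouse share as a covariate 38 genes were called, and without no-stress replicates 1 and 5, which had the highest mouse shares, 32.

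**Figure D5:**
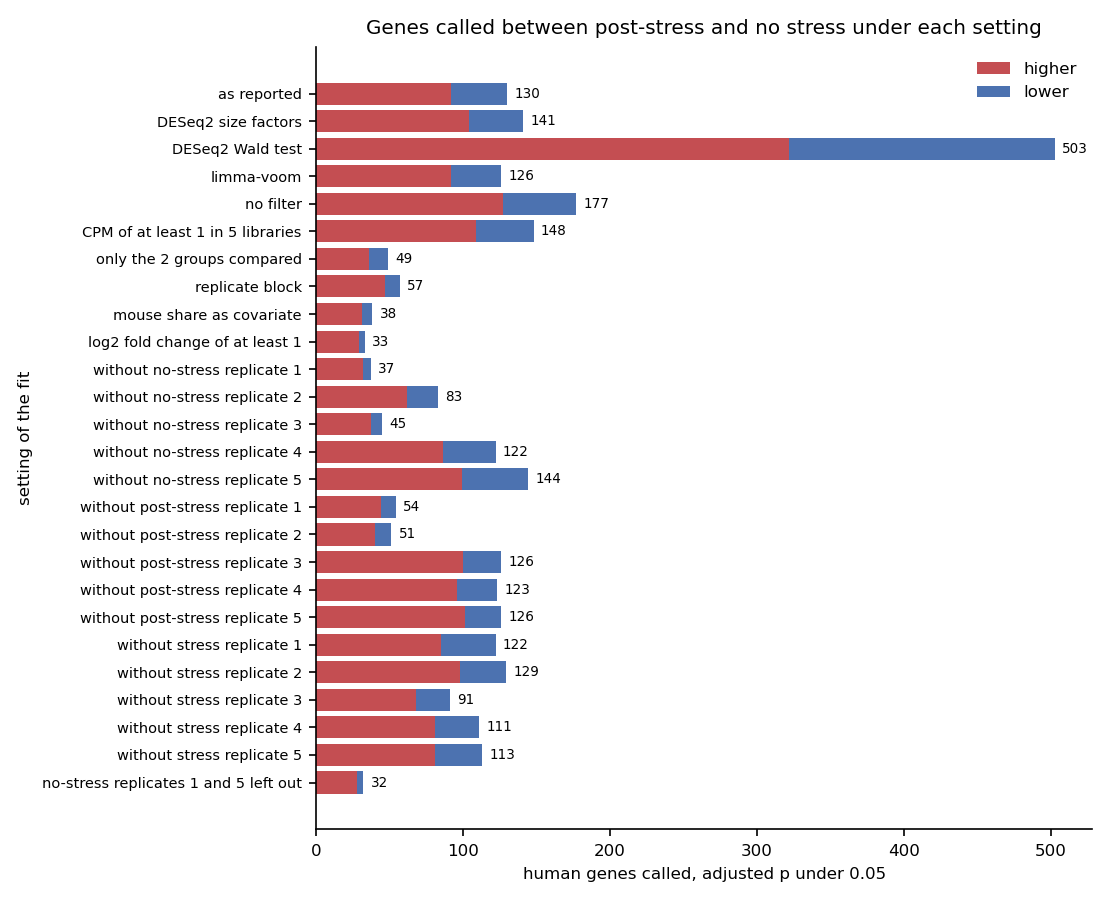
Human genes called between post-stress and no stress (x axis) under each setting of the fit (y axis), with higher genes in red and lower genes in blue. The count is 130 as reported, 503 with DESeq2's Wald test, 38 with the mouse share as a covariate and 37 without no-stress replicate 1.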

How the data were processed

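Groups and replicate numbers of the 15 tumours, 5 per group, came from the sample titles. The values used are the raw counts per gene that the authors deposited. Trimmomatic (0.39), HISAT2 (2.2.1), featureCounts (2.0.6) and the builds hg38 and mm10 are named in the submitters' processing notes. The strand setting was not given in the sources used here, nor was the annotation release or whether both genomes were aligned to jointly. Antisense partners and nearly identical copies therefore cannot be told apart, and reads of the host may have reached human rows. Each row named a gene. Nothing is said of separate experiments, so that p-values measure the spread between these samples.

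Library size and TMM scaling used human rows alone. After filterByExpr 15435 of 60649 human genes remained, with 99.8% of human counts. A robust quasi-likelihood fit over all libraries (edgeR 4.0.16, limma 3.58.1, R 4.3.3) gave a biological coefficient of variation of 0.187, and p was adjusted by Benjamini-Hochberg over every tested gene, with a threshold of 0.05. No 2 libraries of a group agreed within sampling noise. Symbols matched 60507 human identifiers, and gene types are those of GENCODE 29. The procedure was checked on simulated data.

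The genes, the 61 lists and the 58 symbol families were chosen with earlier results of these data known, and they are described by counts and medians without a set test. Named were the 15 largest changes per direction with a logCPM of at least 1, the 10 smallest p, up to 4 members of a list, and FKBP5, TSC22D3, PER1, NR3C1, VEGFA, MKI67, CSF1, CCL2, IL6, CXCL8 and NQO1. A few genes that this rule selects are not reported here. Further members, such as CLOCK, CA9, KDM3A and ISG15, were added for their role after their values were seen. Promoter windows are from RefSeq (GRCh38.p14).

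Other settings tried were limma-voom, the Wald test of DESeq2 (1.42.0) and its size factors, other filters on low counts, a fit of the 2 groups alone, a replicate block, the mouse share of counts as a covariate, a minimum log2 fold change of 1, and fits lacking each library in turn. A fit lacking both no-stress replicates 1 and 5 was chosen after seeing the data.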

Additional observations from a re-analysis of the deposited data

Results flagged for a closer look

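In 76 groups of 5 tumours (38 named genes), 4 held a tumour whose gap to its nearest neighbour took up more of the group's range than 0.71, the 95% limit of Dixon's test, and chance gives about 1 in 20. SSX2IP, a protein of cell junctions and centrosomes, had 19.3 CPM in post-stress replicate 5, above the rest of its group and still below every no-stress tumour. SRGAP3, a regulator of Rac, had 10.1 CPM in post-stress replicate 3. FOS had 42.3 CPM in no-stress replicate 5, which is also the tumour that made its groups overlap. STAC2 had 100.1 CPM in post-stress replicate 2.

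By a direct test, 6 genes differed between post-stress and stress. The log2 fold changes of post-stress against stress were −1.68 for PPM1K, −1.40 for H2BC4, −0.67 for H2BC12, −1.51 for MDK, 0.79 for RAB26 and 0.60 for CERK (edgeR quasi-likelihood test, adjusted p from 0.0242 to 0.0290). None of the 6 was called between post-stress and no stress, and what the difference rests on was not tested.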

How the results depend on the processing

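The 130 called genes were 141 with DESeq2 size factors, 126 with limma-voom, 177 without a filter and 148 with a CPM of at least 1 in 5 libraries. They were 503 with DESeq2's Wald test, 49 with only the 2 groups, 38 with the mouse share as a covariate, 33 with a log2 fold change of at least 1 and 32 without no-stress replicates 1 and 5. Leaving out 1 library gave 37 to 144. With the replicate number as a replicate block 57 were called. The numbers gave no sign of pairing the tumours, since same-numbered tumours correlated at −0.159 to 0.0694 and none correlated best with its own number. Whether same-numbered tumours shared a cage or day is not stated and was not tested. The 6 genes called between post-stress and stress became 215 with DESeq2's Wald test, 36 without a filter, 3 with a log2 fold change of at least 1, 0 with the replicate block, 0 with the mouse share as a covariate and 0 to 189 on leaving out 1 library. The cause of these moves was not tested, except that a minimum fold change can only remove calls by construction. Leaving out 1 library lowered each count in some fits and raised it in others. None of the 130 called genes, and neither share, changed direction under any of these settings. Depth was even across libraries, and genes of low level, such as DEPP1 without stress (0.913 to 4.54 CPM), rest on fewer counts.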
